A study of Mus musculus with 12 samples.

Results

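The AP-1 and EGR immediate early genes are a set of 10 transcription factor genes, Fos, Fosb, Fosl1, Fosl2, Jun, Junb, Jund, Egr1, Egr2 and Egr3, described here in mouse cardiac myofibroblasts. They were chosen by gene symbol and are 10 of the 19505 genes measured, and they are covered by 12 of the 19572 probe sets with a gene symbol. Egr3 has 3 probe sets and each of the others has 1, and the probe set with the highest mean over all arrays stands for a gene. The set was named with earlier results of these data known, and the pick among the Egr3 probe sets used their measured means.

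The study used 12 whole-transcript microarrays in 4 groups of 3: a carrier control, 40 nM sCD74, 8 nM MIF, and 40 nM sCD74 together with 8 nM MIF. Treatment lasted 8 h in every group. All cells were primary cardiac fibroblasts of wildtype C57BL/6J mice aged 1 to 7 days, kept for 10 to 14 days until they had become myofibroblasts, so the groups share genotype, culture and time and differ only in the added proteins. MIF, macrophage migration inhibitory factor, is a cytokine whose receptor on cells includes CD74, and sCD74 is the soluble form of that receptor. Whether replicates are separate cell isolations, and how many animals were pooled, is not stated in the labels. The p-values therefore reflect spread among these arrays alone, and that spread may be technical.

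AP-1 is a dimer of a FOS family protein with a JUN family protein, or of JUN family proteins with each other, that binds short sites of the form TGANTCA. The EGR proteins are zinc finger factors that bind GC-rich sites. In fibroblasts, serum, growth factors and cytokines act through MAP kinases, serum response factor (SRF) and its ternary complex partners to switch many of these genes on within minutes, and most transcripts then decline again. Fosl1 and Fosl2 are usually later and longer lasting than Fos and Fosb, and Jund is the member usually present at a steady level in resting cells.

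Promoters of 7 members (Fos, Fosb, Fosl2, Jun, Junb, Jund and Egr2) were matched in a RefSeq table of the GRCm38.p6 assembly, each as the 250 bases before and the 50 after a start site. Promoters of Egr1, Egr3 and Fosl1 were not used here. Shown are the 120 bases before the start of the members whose values vary most among these arrays, Jun and Fosl2 between replicate numbers and Egr2 between MIF and sCD74. Capitals mark the jun-type AP-1 site TGACATCA in Jun, the EGR site GCGNGGGCG in Fosl2 and the CArG box, the binding site of SRF, in Egr2. Each runs 5′ to 3′ on the gene's own strand.
Jun, chr4:95052223-95052342, minus strand: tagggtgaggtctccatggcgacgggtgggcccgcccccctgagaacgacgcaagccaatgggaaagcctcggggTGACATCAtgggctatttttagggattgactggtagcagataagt
Fosl2, chr5:32136352-32136471, plus strand: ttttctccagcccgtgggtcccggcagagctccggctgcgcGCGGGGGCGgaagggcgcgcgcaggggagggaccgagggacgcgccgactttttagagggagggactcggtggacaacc
Egr2, chr10:67537749-67537868, plus strand, the third of 5 listed starts: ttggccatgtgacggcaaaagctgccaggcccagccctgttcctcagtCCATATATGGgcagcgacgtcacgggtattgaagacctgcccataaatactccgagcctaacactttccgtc

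Both strands were searched for each motif. The match in Jun begins at position -45 from the start, and 3.62% of all 32851 promoters of the same length hold such a site. The match in Fosl2 begins at -79 and overlaps a match to the SP1 site GGGCGG, which is in 35.7% of promoters. Fosb holds the same EGR letters at -50, also overlapping an SP1 match, and 5.55% of promoters hold an EGR site. A CArG box stood in 4 of the 5 Egr2 windows, against 1.63% of all promoters. Windows 3, 4 and 5 overlap and hold the same CCATATATGG, so they are not separate cases. Window 2 holds CCTTTTTTGG. The letters TGANTCA, found in 7.81% of promoters, and TGACGTCA, found in 1.79%, were not in any of the 7 members' windows. These are descriptions of sequence, not of binding.

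Signal was judged against the negative control probe sets, whose median averaged 7.53 in the deposited log2 values. Of the 10 genes, 8 lay above that median on all 12 arrays, against 52% of all genes. Fos lay below it on 12 of 12 arrays and Fosb lay above it on 9. For Fos, the share of negative controls that were dimmer than its probe set ran from 20.4% to 36.0%, so no size is read from its differences. That share was 43.7% to 59.2% for Fosb, 50.3% to 72.3% for Fosl1 and 52.9% to 78.4% for Egr2. The values of these genes thus lay close to background. The arrays carried the fibroblast identity that the labels give: the mean of 9 fibroblast markers lay between 15.1 and 15.3 on every array, and that of 7 myofibroblast markers between 13.5 and 14.3. Markers of other cells were also present, and 14 macrophage markers averaged 12.4 to 13.9. Of 5 lymphocyte markers, Cd3e, Cd79a, Cd8a and Nkg7 lay above the negative control median on 0 arrays. The remaining marker, Cd4, lay above that median on all 12 arrays, with a mean of 10.4. In such mixed RNA, fewer cells of a type and less RNA per cell cannot be told apart.

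No AP-1 or EGR gene passed the test in any treatment comparison at 8 h. In limma fits over all 19505 genes, 0 of 90 tests of these genes had a Benjamini-Hochberg adjusted p under 0.05, and the adjusted values ran from 0.999 to 1.00. The background was 0% of all genes called for sCD74, for MIF and for both proteins against carrier alike, while the unadjusted p was under 0.05 for 350, 653 and 780 genes. Of the 90 tests, 1 had an unadjusted p under 0.05, that of Egr2 between MIF and sCD74, where 2.74% of all genes did. With the replicate number as a block in limma, that p was 0.0246. The chosen Egr3 probe set then also came under 0.05, with both proteins against carrier (0.0465) and against MIF (0.0459). There 8.23% and 4.43% of all genes did. Fosl1 did so over all MIF arrays (0.0496), as did 8.16% of all genes. None of these passed after adjustment. Over all 6 pairs of groups the differences of the 10 genes ran from -0.28 to 0.39 on the log2 scale, and their 95% intervals reached from -0.68 to 0.73. The SE of such a difference ran from 0.118 for Jund to 0.211 for Jun in the fit without a block. In the blocked fit it ran from 0.117 for Jund to 0.151 for Egr2, with Jun at 0.131. Unless stated, the SEs and intervals of treatment differences given below come from the fit without a block.

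The FOS family proteins need a JUN partner to bind DNA. Fos, the founding member, read 6.32, 6.46 and 6.40 in carrier, 6.35, 6.56 and 6.30 with sCD74, 6.54, 6.82 and 6.32 with MIF, and 6.33, 6.35 and 6.49 with both proteins. Its highest array was 1 of the MIF arrays, and all groups overlapped below the negative controls. Fosb, its close relative, read 7.70, 7.70 and 7.64 in carrier, 7.89, 7.24 and 7.70 with sCD74, 7.79, 7.70 and 7.75 with MIF, and 7.81, 7.51 and 7.58 with both. Replicate 2 with sCD74 was the lowest array, and all groups overlapped.

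Fosl1 encodes Fra-1, a FOS protein without the strong activation domain of Fos. It read 8.10, 8.30 and 7.78 in carrier, 8.12, 8.09 and 7.92 with sCD74, 8.53, 8.19 and 8.00 with MIF, and 8.44, 8.15 and 8.27 with both. The 3 arrays with both proteins lay above the 3 with sCD74 alone, and the other groups overlapped. The difference between those groups was 0.24 ± 0.17 (SE), with a limma adjusted p of 1.00. Over all 6 MIF arrays against the 6 without MIF it was 0.21 ± 0.12, higher in 5 of 6 same-numbered pairs, with an unadjusted limma p of 0.104 and an adjusted p of 1.00, and it was 0.14 without MIF replicate 1.

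Fosl2 encodes Fra-2, which has been studied in fibrosis. It read 10.64, 10.04 and 10.44 in carrier, 10.54, 10.46 and 10.23 with sCD74, 10.63, 10.35 and 10.71 with MIF, and 11.01, 10.29 and 10.62 with both. The spread inside the carrier group, and inside the group with both proteins, was wider than the gap between any group means. With both proteins against carrier the difference was 0.26 ± 0.20 (SE) and was positive in 3 of 3 same-numbered pairs, with a limma adjusted p of 0.999. It was 0.08 without replicate 1 of both proteins, 0.10 without carrier replicate 2, 0.39 without carrier replicate 1 and 0.44 without replicate 2 of both.

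The JUN proteins can pair with each other as well as with FOS proteins. Jun, the strongest activator of the family, read 10.35, 10.73 and 10.76 in carrier, 10.43, 10.82 and 11.02 with sCD74, 10.66, 10.67 and 11.34 with MIF, and 10.50, 10.63 and 10.86 with both. In all 4 groups replicate 3 was the highest array and replicate 1 the lowest. Against carrier the MIF difference was 0.28 ± 0.21 (SE). Its interval, reaching to 0.73, was as wide as any between 2 groups in the set, in the fit without a block. Adding a replicate block lowered that SE to 0.131, below those of Egr2 (0.151), Egr1 (0.149) and Fosl2 (0.147). The limma p was then 0.0568 unadjusted and 0.769 adjusted. The same-numbered pairs differed by 0.309, -0.064 and 0.581. With both proteins Jun lay below MIF alone in 3 of 3 pairs, by -0.23 ± 0.21, and it departed from the sum of both separate differences by -0.37 ± 0.30. Neither passed, with limma adjusted p of 1.00 for each. Without MIF replicate 3 they were 0.05 for MIF against carrier, 0.00 for both proteins against MIF and -0.14 for the departure. Leaving out replicate 1 arrays also moved them, with MIF against carrier at 0.14 without carrier replicate 1. The difference between both proteins and MIF was -0.34 without MIF replicate 1 and -0.14 without replicate 1 of both. The departure was -0.23 without carrier replicate 1 and -0.24 without sCD74 replicate 3.

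Junb, which often opposes Jun at its targets, read 10.47, 10.76 and 10.75 in carrier, 10.77, 10.43 and 10.59 with sCD74, 10.63, 10.70 and 10.93 with MIF, and 10.87, 10.82 and 10.78 with both. The arrays with both proteins lay closest together and just above every carrier and every sCD74 array. The difference was 0.16 ± 0.14 (SE) against carrier and 0.22 ± 0.14 against sCD74, positive in 3 of 3 pairs in each, with limma adjusted p of 0.999 and 1.00. The first was 0.06 without carrier replicate 1 and the second 0.14 without sCD74 replicate 2. Jund read 11.46, 11.44 and 11.45 in carrier, 11.53, 11.39 and 11.34 with sCD74, 11.21, 11.46 and 11.49 with MIF, and 11.40, 11.35 and 11.47 with both. It was the steadiest member: its SD over the 12 arrays was 0.087, and 1.72% of all genes had a smaller one.

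**Figure D1:**
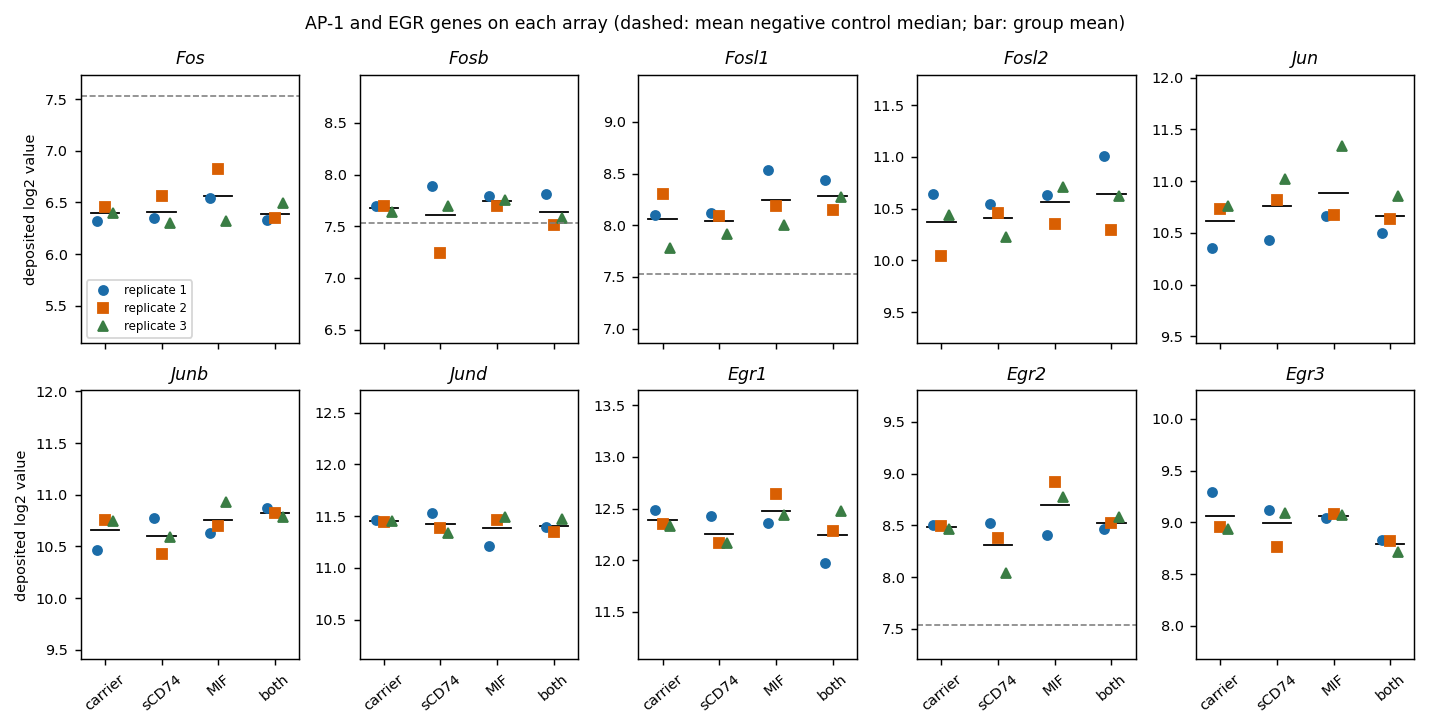
Deposited log2 values of the 10 AP-1 and EGR genes on each of the 12 arrays by treatment group, every panel spanning the same height. Marker shape and colour give the replicate number, bars the means of 3 arrays, and the dashed line the mean negative control median of 7.53 where it falls in the panel. Fos lies wholly under that line, and in Jun the replicate 3 array is the highest of each group.

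The EGR genes are usually the fastest readout of the MAP kinase and SRF route. Egr1, the best known of them, read 12.49, 12.35 and 12.33 in carrier, 12.43, 12.17 and 12.17 with sCD74, 12.36, 12.64 and 12.44 with MIF, and 11.97, 12.28 and 12.48 with both. The lowest array was replicate 1 with both proteins and the highest was replicate 2 with MIF. With both proteins against MIF alone the difference was -0.24 ± 0.15 (SE), with a limma adjusted p of 1.00, and it was -0.10 without replicate 1 of both. With sCD74 it lay lower than carrier in 3 of 3 pairs, by -0.13 ± 0.15, and by -0.08 to -0.22 with an array left out.

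Egr2, which is also studied downstream of TGF-beta in fibroblasts, read 8.50, 8.49 and 8.46 in carrier, 8.52, 8.38 and 8.04 with sCD74, 8.41, 8.92 and 8.77 with MIF, and 8.46, 8.52 and 8.58 with both. Carrier arrays were nearly alike, while 2 MIF arrays were high and 1 sCD74 array was low. Its mean was lowest with sCD74 (8.31 ± 0.25, SD, n = 3) and highest with MIF (8.70 ± 0.26), a difference of 0.39 ± 0.16 (SE; 95% interval 0.05 to 0.72). That was the largest difference of any member between treatments, in a pair of groups added after the data had been seen. Its unadjusted limma p was 0.0278 and its adjusted p 1.00, and 1.42% of all genes had a smaller p in that pair. Against carrier Egr2 differed by 0.21 ± 0.16 with MIF and by -0.17 ± 0.16 with sCD74. The first was 0.10 without MIF replicate 2 and 0.36 without MIF replicate 1. The second was -0.04 without sCD74 replicate 3 and -0.28 without sCD74 replicate 1, and MIF against sCD74 was 0.25 without sCD74 replicate 3. That array had the highest negative control median of all arrays, 7.90, just under its Egr2 value of 8.04.

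Egr3, a related zinc finger factor, read 9.29, 8.96 and 8.94 in carrier, 9.12, 8.76 and 9.09 with sCD74, 9.04, 9.08 and 9.07 with MIF, and 8.83, 8.82 and 8.71 with both. All arrays with both proteins lay below all carrier and all MIF arrays. The difference was -0.28 ± 0.14 (SE) against carrier, negative in 3 of 3 pairs, with a limma adjusted p of 0.999, and -0.28 ± 0.14 against MIF, with an adjusted p of 1.00. Without carrier replicate 1 the first of these was -0.16. The gap was not seen on the second Egr3 probe set, which differed from carrier by -0.01 ± 0.15. The last Egr3 probe set, with a mean of 4.25, lay below the negative control median on all 12 arrays. It differed from carrier by 0.15 ± 0.11, in the other direction. The identifiers of the chosen and the second probe set mark them as unmapped, and that of the last does not. Whether the chosen probe set reads the Egr3 transcript was not tested.

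The directions of the means are given as counts, with no test. With MIF, 9 of 10 had a higher mean than carrier, where 52.7% of all genes did, and their median difference was 0.13 against 0.01 for all genes. The member that did not was Jund, at -0.06, and Egr3 was level at 0.00. Both the count and the median include Fos, which lay below the negative controls. With an array left out, Junb went as low as -0.01. With sCD74, 3 of 10 were higher than carrier (Fos, Fosl2 and Jun) against 50% of all genes, with a median of -0.05. With both proteins 5 of 10 were higher, against 50.3%, with a median of 0.02. These comparisons share the 3 carrier arrays, so their leanings are not independent. Between MIF and sCD74, a pair added after the data had been seen, 9 of 10 were higher with MIF. That compares with 53.5% of all genes, with a median of 0.15 against 0.01. With an array left out, Fosb went as low as -0.05 there, Jun -0.09 and the chosen Egr3 probe set -0.04. The second Egr3 probe set was at -0.07 with all arrays. None of the differences behind these counts passed the test.

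Groups that did not overlap were few. The count was 0 of 10 for MIF against carrier, where 6.89% of all genes had groups apart, and 0 of 10 for sCD74 against carrier, where 5.21% did. It was 2 of 10 (Junb and Egr3) for both proteins against carrier, with a background of 8.49%. Against sCD74 alone it was 2 of 10 (Fosl1 and Junb) with a background of 7.48%, and against MIF alone 1 of 10 (Egr3) with a background of 7.16%. For MIF against sCD74 it was 0 of 10, with a background of 6.48%.

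**Figure D2:**
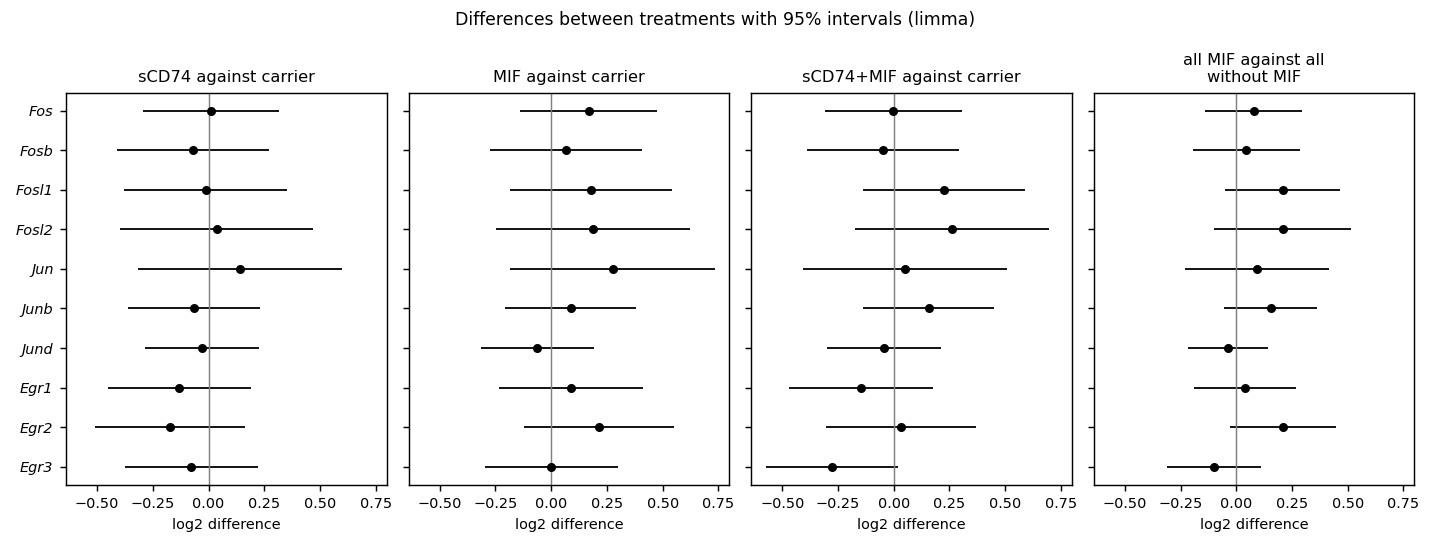
Log2 differences of the 10 genes in 4 treatment comparisons, as limma estimates with 95% intervals. Every interval, from the fit without a block, crosses 0. The one that comes closest to excluding it in the comparisons with carrier is that of the chosen Egr3 probe set with both proteins, at -0.28.

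Pooling the arrays by protein gave more precise differences of the same kind. Across all 6 MIF arrays against the 6 without, 8 of 10 members were higher, against 52.5% of genes. The differences were 0.21 ± 0.11 (SE) for Egr2, 0.21 ± 0.14 for Fosl2 and 0.16 ± 0.10 for Junb, the last higher in 5 of 6 pairs. That of Fosl2 was 0.12 without carrier replicate 2 and 0.11 without replicate 1 of both proteins. Across all 6 sCD74 arrays against the 6 without, 3 of 10 were higher, against 49.1% of genes. Egr1, Egr2 and the chosen Egr3 probe set were at -0.18 each there, with Egr1 and Egr3 lower in 5 of 6 pairs. The second Egr3 probe set was at 0.03, so the Egr3 direction rests on the choice of probe set. Egr1 was at -0.12 without replicate 1 of both proteins and Egr2 at -0.11 without sCD74 replicate 3. Adjusted p in limma was 1.00 for each of these, and 841 and 457 of all genes had an unadjusted p under 0.05 in the MIF and sCD74 comparison.

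Genes around AP-1 and EGR also gave no treatment call. The lists tested were 36 other immediate early genes, 18 other bZIP factors that pair or compete with AP-1, 23 kinases and factors that feed the promoters of these genes, 24 textbook targets that include the member Fosl1, and the EGR co-repressors Nab1 and Nab2. With MIF, 26 of 36 other immediate early genes had a higher mean than carrier, with a median of 0.06, and 15 of 24 targets did, with a median of 0.13. With both proteins the counts were 22 of 36 (median 0.07) and 19 of 24 (median 0.11). Of all genes, 52.7% were higher with MIF and 50.3% with both. Of the other bZIP factors, 11 of 18 were higher with MIF (median 0.02) and 9 of 18 with both (median -0.002). Of the kinases and factors, 15 of 23 (median 0.03) and 14 of 23 (median 0.05) were. Nab1 and Nab2 were higher in each comparison. No gene of any list passed in limma in these comparisons, where adjusted p ran from 0.999 to 1.00.

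The list genes with the smallest p were these. The mean of Maff, a small MAF protein without an activation domain, was 8.04 under carrier, 8.32 under sCD74, 8.61 under MIF and 8.64 under both, a difference of 0.57 ± 0.23 (SE) for MIF and 0.60 ± 0.23 for both. Mapk11, the p38 beta kinase, differed by 0.50 ± 0.22 with MIF and by 0.74 ± 0.22 with both. Mrtfa, an actin-regulated partner of SRF, differed by -0.41 ± 0.14 with MIF and by -0.36 ± 0.14 with both. The kinase and the SRF partner had opposite signs, and neither passed. The growth arrest gene Gadd45b differed by 0.45 ± 0.21 with both, and the bZIP gene Atf5 by -0.23 ± 0.12 with MIF. With sCD74 the smallest p among genes above the negative controls, beside Maff and Mrtfa, were those of Gadd45a (-0.20 ± 0.17), Batf (-0.41 ± 0.24), Elk1 (0.18 ± 0.14) and Plaur (0.22 ± 0.21). Csrnp1, Mafg and Batf2 also had small p but lay below the negative controls in every group. Among the targets, the chemokine gene Ccl2 differed by 1.26 ± 0.51 and 1.71 ± 0.51. For the co-repressors the largest difference from carrier was 0.11 ± 0.20, of Nab1 with MIF. The collagenase gene Mmp13 averaged 7.17 in carrier, below the negative control median, and 7.82 with MIF.

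Larger differences ran between replicate numbers. The arrays of each number share a code in the sample titles, 4 arrays to a number, and the labels do not state what the code stands for. With treatment group in the limma fit, 1 of 10 members was called between replicates 2 and 1, where 16.9% of all genes were, and 1 of 10 between replicates 3 and 1, where 9.23% were. Between replicates 3 and 2 it was 0 of 10 (224 genes or 1.15% overall), with Jun at an unadjusted p of 0.0283. The members' counts thus lie near or below the background.

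The member called between replicates 3 and 1 was Jun, which rose by 0.51 ± 0.11 (SE, limma adjusted p 0.0147). It averaged 10.48 ± 0.13 (SD, n = 4) in replicate 1, 10.71 ± 0.08 in replicate 2 and 10.99 ± 0.25 in replicate 3. The difference was 0.412 in carrier, 0.589 with sCD74, 0.684 with MIF and 0.358 in the co-treated arrays, so it was positive in 4 of 4 groups and the arrays of these numbers did not overlap, as for 14.3% of all genes. Without sCD74 replicate 1 the adjusted p was 0.0649, and without MIF replicate 3 it was 0.0622.

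The member called between replicates 2 and 1 was Fosl2, which fell, with a difference of -0.42 ± 0.13 (SE, limma adjusted p 0.0402). It averaged 10.71 ± 0.21 (SD, n = 4) in replicate 1, 10.29 ± 0.18 in replicate 2 and 10.50 ± 0.21 in replicate 3. The difference was -0.594 in carrier, -0.080 with sCD74, -0.285 with MIF and -0.722 in the co-treated arrays, negative in 4 of 4 groups, and the arrays of these numbers did not overlap, as for 22.2% of all genes. This call was lost when any of 8 of the 12 arrays was left out: carrier replicate 1, 2 or 3, sCD74 replicate 1, MIF replicate 2, or replicate 1, 2 or 3 with both proteins. The adjusted p was then 0.0501 to 0.145.

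Cell type markers moved with these numbers. Of all genes, 9.5% were called higher and 7.38% lower in replicate 2 than in replicate 1. In replicate 3 against replicate 1 the shares were 5.48% and 3.75%. All 14 macrophage markers were called higher in replicate 2 than in replicate 1 (list mean 13.7 to 13.9 against 12.4 to 12.8), and 9 of 14 in replicate 3 (13.2 to 13.6). Of 11 endothelial markers, 8 were called lower in replicate 2 than in replicate 1 and 1 higher (8.84 to 8.96 against 10.3 to 10.4), and 8 lower in replicate 3 (9.24 to 9.56). All 9 cardiomyocyte markers were called lower in replicate 3 than in replicate 1 (8.24 to 8.28 against 9.83 to 10.1), with Myh7 and Nppa at 5.69 and 6.28 there, under the negative controls. In replicate 2 against replicate 1, 3 of these 9 were called higher and 2 lower (list mean 10.1 to 10.3 in replicate 2). Of 7 myofibroblast markers, 2 were called lower in replicate 2 than in replicate 1 (13.6 to 13.7 against 13.7 to 14.3) and 4 in replicate 3 (13.5 to 13.7). Of 6 smooth muscle and pericyte markers, 3 were called lower in each (7.44 to 7.67 and 7.64 to 7.79 against 8.11 to 8.32), and Cspg4 lay above the negative controls on 0 arrays. No fibroblast or lymphocyte marker was called. The part of these shifts in the Jun and Fosl2 differences was not tested. Against carrier no marker of these lists was called for any treatment, and the median macrophage marker differed from carrier by -0.30 with sCD74, -0.19 with MIF and -0.15 with both.

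**Figure D3:**
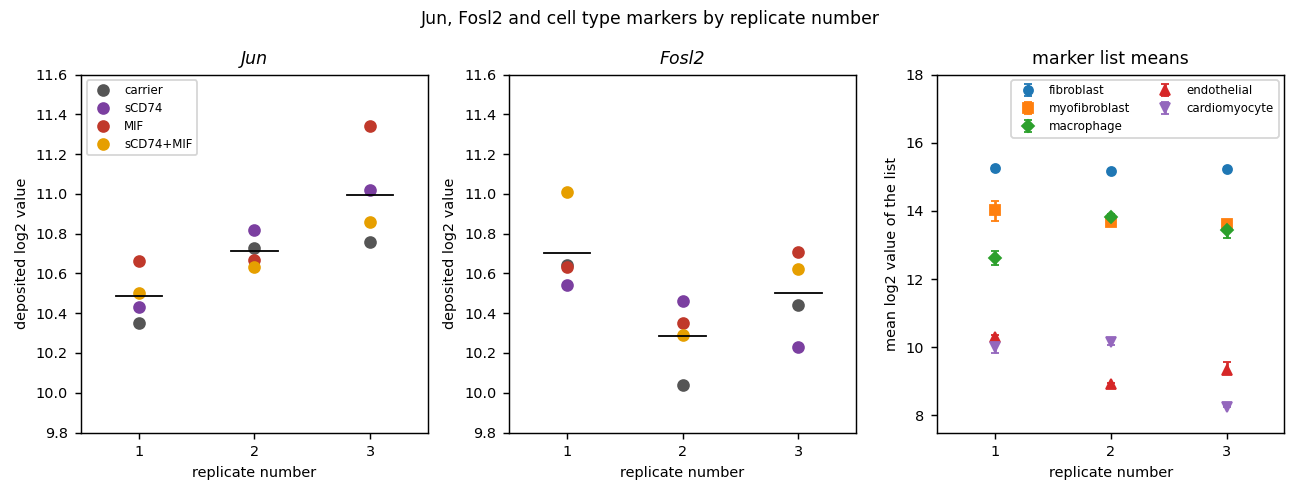
Left and middle, deposited log2 values of Jun and Fosl2 on the 12 arrays by replicate number, coloured by treatment, with bars at the means of 4 arrays. Right, mean log2 value of each marker list, with bars from the lowest to the highest of the 4 arrays. Jun goes from 10.48 to 10.99 between replicates 1 and 3, while the macrophage list goes from 12.6 to 13.4 and the cardiomyocyte list from 10.0 to 8.26.

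Shares of variance put these differences side by side. For Jun, 66.3% of the variance over the 12 arrays lay between replicate numbers and 16.7% between treatments, and for Fosl2 the shares were 49.8% and 19.6%. Fosb (43.0% by number) and Fosl1 (39.7%) were also on that side. Fos had 29.3% by number and 24.3% by treatment. The order was turned for Junb (34.5% between treatments and 7.41% between numbers) and Jund (7.27% and 3.64%). It was turned too for Egr1 (33.0% and 1.54%), Egr2 (45.5% and 6.86%) and the chosen Egr3 probe set (47.9% and 18.5%). The median gene had 28.5% between numbers and 19.2% between treatments. There are more treatment groups than replicate numbers, so treatment would on average take the larger share with no effect of either. The order of the 2 shares is therefore no sign of a treatment effect. These shares are descriptions and were given no test.

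Several genes that are usually induced with Fos and Egr1 differed by replicate number. Of the 36 other immediate early genes, 4 were called higher and 8 lower in replicate 2 than in replicate 1, and 2 higher and 9 lower in replicate 3, beside 16.9% and 9.23% of all genes called. Nr4a3, an orphan nuclear receptor gene, averaged 8.84 in replicate 1 and 7.26 in replicate 2, where it lay under the negative controls, so its fall (limma adjusted p 7.94e-06) is given no size. Plk2, a kinase gene, fell by 1.23 ± 0.09 (SE, adjusted p 6.45e-06), and Dusp1, a phosphatase that switches MAP kinases off, fell by 1.29 ± 0.14 (adjusted p 6.27e-05). Pim1, a survival kinase gene, fell by 1.16 ± 0.11. Between replicates 3 and 1 the differences were -0.80 for Plk2, -0.97 for Dusp1 and -1.01 for Pim1, all called. Between replicates 3 and 2, Plk2 rose by 0.43 ± 0.09 and Dusp6, another MAP kinase phosphatase gene, fell by 0.61 ± 0.13.

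Targets, partners and inputs were called in both directions between replicate numbers. The background for each list was again 16.9% of all genes called in replicate 2 against 1 and 9.23% in replicate 3 against 1. Of the 24 targets, 3 were called higher and 6 lower in replicate 2 than in replicate 1, and 2 higher and 5 lower in replicate 3. Il6, a cytokine gene with an AP-1 site, fell by 1.68 ± 0.11 (SE, limma adjusted p 3.13e-06) and Timp1, a protease inhibitor gene, by 0.90 ± 0.14, while Hmox1, the haem-degrading stress enzyme, rose by 0.48 ± 0.10. Ereg, a growth factor gene, fell by 0.87 ± 0.14. In replicate 3 the matrix protease gene Mmp3 was lower than in replicate 1, by -0.83 ± 0.17. Among the 18 bZIP factors, 3 were called in replicate 2 against 1, which is the background share: Maf rose by 1.13 ± 0.11, Atf3 rose by 0.41 ± 0.13 and Cebpd fell by 0.89 ± 0.14. Maf is also known from macrophages, whose markers rose between the same numbers. Among the 23 kinases and SRF inputs, 5 were called higher and 2 lower in replicate 2, and 2 higher and 0 lower in replicate 3. In replicate 2 against 1, Map3k1, a JNK pathway kinase, was at 1.13 ± 0.16, Map2k6, a p38 pathway kinase, at 0.90 ± 0.12, Mef2c, a MADS box factor, at 0.65 ± 0.10 and Mapk8, which encodes JNK1, at -0.55 ± 0.11. Nab1, which represses EGR proteins, fell by 0.50 ± 0.10 (adjusted p 0.00453), while Egr1 averaged 12.31 in replicate 1 and 12.36 in replicate 2. The part of the macrophage, endothelial and cardiomyocyte marker shifts in these differences was not tested.

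**Figure D4:**
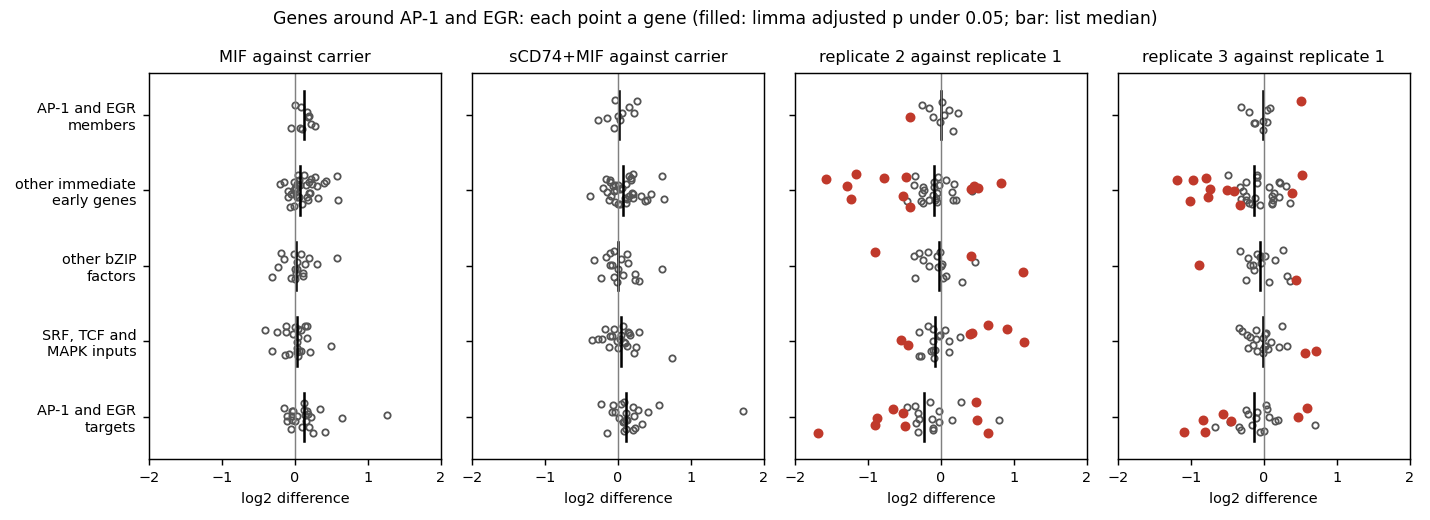
Log2 differences of the 10 members and of 4 lists of related genes, 1 point a gene, for 2 treatment and 2 replicate number comparisons. Filled points have a limma adjusted p under 0.05 and bars are list medians. Only the replicate number panels hold filled points, with 1 member in each, Fosl2 at -0.42 and Jun at 0.51.

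The genes whose pattern was most like that of a member were sought over the 12 arrays, after the mean of each replicate number had been taken out, among 10961 genes above the negative controls. The neighbours share arrays and scaling with the member and are given as a description only. With the replicate number means left in, r was lower for every neighbour, from -0.18 (Jun and Rnf103) to 0.90 (Egr3 and App). The neighbours of Fos follow a probe set that lay below the negative controls. Fos had Ccdc12, Nfx1 and Ptpn14 (each r = 0.89), and Fosb had Vmn1r204 (0.88), Hmgb3 (0.88) and Zpld1 (0.85). Fosl1 had Tex264 (0.93), Hadhb (0.92) and Heyl (0.91). Jun was followed most closely by Rnf103 (r = 0.90), Gzmg (0.87) and Plscr3 (0.86). Fosl2 was followed by Lpcat4 (0.93), Lmf1 (0.89) and Aebp1 (0.89). For Junb they were Kdelr3 (0.95), Ywhaq (0.94) and Cse1l (0.93), and for Jund Met (0.96), Rps15 (0.94) and Ptpn23 (0.92). For Egr1 they were Tmprss7 (0.94), Ntmt1 (0.92) and Olfr935 (0.92). For Egr2 they were Bean1, Zbtb7c and Toe1, each at 0.90, and for Egr3 Rest (0.94), Ano7 (0.93) and App (0.91). Among the members themselves the closest pair was Egr1 and Egr2 (r = 0.67), followed by Fosb and Junb (r = 0.61). No member was among another member's 3 closest genes.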

How the data were processed

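The deposited values are log2 expression values, 1 column per array, and were used as deposited. The authors used RMA, Transcriptome Analysis Console and Affymetrix Expression Console, per the submitters' processing notes, with no versions. RMA corrects background and equalizes array distributions, which can hide a global shift. Values ran from 3.08 to 18.39, with 231 to 251 probe sets an array above 16, the log2 limit of a 16-bit scanner, so a rescaling step may have been used and the size of a difference as a fold depends on it.

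Of 28846 probe sets, 6640 controls and 2634 without a symbol were left out. Each gene was fitted with limma 3.58.1 (R 4.3.3) over 4 group means, two-sided, with Benjamini-Hochberg adjustment at 0.05 within a contrast; replicate number contrasts add the number to the fit. Scripts were tested on simulated data. Array medians lay between 8.01 and 8.14, and the precision is set by 3 arrays a group: the median SE of a difference was 0.169.

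The titles give same-numbered arrays a shared code, taken as pairing. Their deviations from group means correlated with r of 0.097 to 0.647, above 0.1 in 17 of 18 pairs. The alternatives were a replicate block, other scaling, a filter, other variance models, uncollapsed probe sets and left-out arrays.

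The members and lists were chosen with earlier results of these data known. The rule for names took all members, the 3 genes most like each, and per list and contrast up to 4 called genes or, with none, the 2 with the smallest p; of the last, the text prints the comparisons with carrier and those between replicate numbers, the latter in part. Probe set coordinates are not printed, since the sources used here give no build for them.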

Additional observations from a re-analysis of the deposited data

Results flagged for a closer look

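Dixon's test was run on the 10 members in 70 groups of 4 to 6 arrays, and chance alone marks about 1 in 20 such groups. It marked 4, on 2 arrays, MIF replicate 1 and sCD74 replicate 3. Fos with MIF in replicate 1 read 6.54, above the other 3 arrays of that replicate number, with a gap of 0.9 of the range, but below the negative controls. Jund with MIF in replicate 1 read 11.21, below the other 5 arrays without sCD74, with a gap of 0.824 of the range. Egr2 with sCD74 in replicate 3 read 8.04, below the other 5 arrays without MIF (0.718 of the range) and below the other 5 with sCD74 (0.634).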

How the results depend on the processing

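The alternatives were the replicate block, median centring, a second quantile normalization, a filter on genes above the negative control median, trend and robust variance, all probe sets, and each array left out in turn. Leaving out the 4 arrays of a replicate number, and the pair MIF against sCD74, were added after seeing the data. Of 2508 member values under these alternatives, none that was called changed sign, 26 calls were kept and 10 were lost, 8 of Fosl2 and 2 of Jun. Of the values that passed in neither fit, 178 changed sign.

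With the replicate block, 0 members were called for any treatment and 1 gene was called for all MIF against all without MIF, where the fit without it called 0. The block lowered the unadjusted p of Jun for MIF against carrier from 0.216 to 0.0568 and that of Egr3 for both proteins against carrier from 0.0646 to 0.0465, and it changed no member's call. The block with trend and robust variance called 1 gene for MIF against carrier, 6 for both proteins against carrier, 2 for both against sCD74, and 3 for all MIF against all without. Leaving out an array gave 0 to 1 calls for all MIF against all without. Between replicate numbers it gave 2172 to 3305 genes for 2 against 1 (3291 with all arrays), lowest without sCD74 replicate 2. It gave 978 to 1721 for 3 against 1 (1800), lowest without sCD74 replicate 1, with large drops also without carrier replicate 3 (1096) or MIF replicate 3 (1155). It gave 59 to 227 for 3 against 2 (224), with 59 to 111 without replicate 2 or 3 of carrier, sCD74 or both proteins. For 3 against 2 the filter gave 516 and trend and robust variance 734.

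Over the arrays left out, Egr2 for MIF against sCD74 ranged from 0.25 to 0.53, lowest without sCD74 replicate 3, and was 0.21 without the 4 arrays of replicate 3. Precision is limited by 3 arrays a group, and Fos has no usable signal over background. For the member differences printed, values that a left-out array moved by over 1.5 times stand beside the results.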
